A study of Mus musculus with 15 samples.

Results

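This report describes the small RNAs of mouse testis that mapped to LINE-1 elements named L1Md in the repeat annotation. Members were all counted loci of class LINE and family L1 whose repeat name begins with L1Md, where a locus is a genomic interval with a strand, roughly the footprint of 1 small RNA sequence. The rule selected 49917 of 8128951 loci in 15 libraries and used no measured value. A further 234250 loci belonged to the other L1 names.

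LINE-1 is an autonomous retrotransposon that copies itself through an RNA intermediate, and its transcripts are a classical target of piRNAs in the male germ line. piRNAs are small RNAs bound by PIWI proteins, and they silence transposons by slicing their transcripts and by guiding DNA methylation at their promoters. In the adult mouse testis most piRNAs are pachytene piRNAs, which are cut stepwise from long single-stranded precursors transcribed from dedicated genomic clusters, so that a transposon fragment inside a cluster can yield piRNAs from 1 strand without being active. Pseudouridine (Ψ) is an isomer of uridine made within RNA by pseudouridine synthases.

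All libraries came from testes of C57Bl/6 male mice aged 8 weeks, and no group carried an added allele. Total RNA was run on a gel, and small RNA of 17 to 40 nt was cut out. There were 3 libraries in each of 5 groups. RNA was either mock treated or treated with CMC, a carbodiimide that attaches to Ψ and stops reverse transcriptase, so that a molecule carrying Ψ tends to drop out of the library. In a separate experiment small RNA was immunoprecipitated with an antibody against Ψ (Ψ-IP) and sequenced together with its input and with its flow-through, the RNA that the antibody did not bind. The kits differed, since NEBNext was used for the mock-treated and CMC-treated libraries and Nextflex for input, Ψ-IP and flow-through. Experiment and kit therefore cannot be told apart, and treated libraries were compared only with the controls of their own experiment. The labels do not say whether libraries of a group came from different animals, so p-values measure the spread between libraries, which may be technical. Library totals ran from 11575705 to 58399368 counts. The L1Md counts in a library ran from 25412 to 109467, and 804436 L1Md counts were available in all. Tissue identity could not be checked against mRNA markers, because only small RNA counts at repeats and clusters were analysed here.

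The name L1Md covers elements of very different age. L1MdA, L1MdTf and L1MdGf are the lineages known to be active in laboratory mice, and L1MdF, L1MdFanc, L1MdMus and L1MdV are older names. The counts, of reads intersected with annotated piRNA clusters, went against calling the counted elements young. L1MdV held 63.8% of all L1Md counts at 24667 loci, and L1MdFanc held 31.3% at 15974 loci. L1MdMus held 2.86% and L1MdF 1.23%. The active lineages together held 0.790% of the counts, at 2110 loci, with 0.617% for L1MdA, 0.146% for L1MdTf and 0.0265% for L1MdGf. L1MdN had 7 counts. What follows is accordingly an account of L1MdV and L1MdFanc for the most part.

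Sequences could be read only for L1Md loci that lie inside annotated exons, from GENCODE vM21 transcripts on mm10, and none of the most abundant loci was among them. The following pair gives examples of L1Md small RNAs, with the first base in capitals. Loci above 30 nt were left out of the choice, as was a chromosome that held most of the readable counts. Readable loci held 0.918% of the L1Md counts, and 0.187% on the other chromosomes. Both are low in count and begin with T, written U in RNA, the usual first base of a piRNA.
L1MdMus, chr10:83446906-83446932, plus strand, 27 nt, exon of D10Wsu102e: Taatagaactctgcgctagacccatct
L1MdV, chr3:124398495-124398524, minus strand, 30 nt, exon of 4921527H02Rik: Tccatctattatcctctgtagggctggatt
The L1MdMus locus had 24 counts in 6 of the 15 libraries, with 0 in input, Ψ-IP and flow-through, and the L1MdV locus had 22 counts in 7. No statement on base composition is drawn from them.

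The counts came from very few places. The authors intersected repeat reads with annotated piRNA clusters, so L1Md copies outside clusters may not have been counted. The stretches, strands and shares below describe the counted loci only. Loci of 1 repeat name were chained into stretches wherever the gap between them was at most 500 nt, which gave 314 L1Md stretches. The first 7 held 90.7% of the L1Md counts. The largest was an L1MdFanc stretch on the minus strand at chr14:24348247-24355643 with 16.7%. An L1MdV stretch on the plus strand at chr8:110124957-110125845 held 12.8%. An L1MdV stretch on the minus strand at chr7:73805051-73806521, in an intron of the lincRNA Gm10619, held 11.1%. The remaining stretches of the 7 lay within 273913 nt of chromosome 2 and were similar in length, between 2389 and 2415 nt. They were chr2:151261089-151263503 (L1MdV, minus strand, 13.6%), chr2:151143158-151145546 (L1MdV, plus strand, 13.05%), chr2:151317348-151319755 (L1MdFanc, plus strand, 12.02%) and chr2:151414656-151417070 (L1MdV, minus strand, 11.4%, in an intron of the lincRNA Gm14152). The eighth stretch was L1MdMus at chr14:24341794-24346901, minus strand, with 2.23%. In each of the 8 stretches, 99.86% to 99.98% of the counts were on 1 strand, and over all of L1Md 0.190% of counts lay on the minor strand of their stretch.

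The 4 stretches on chromosome 2 had like profiles of small RNA and are called copies here, although their sequences were not compared. Counted from the 5′ edge of each stretch on its own strand, their profiles of 5′ ends matched best at shifts of at most 7 nt, with Pearson r over positions of 0.70 for the copies at 151261089 and 151414656 and 0.53 for those at 151261089 and 151317348. Between the copies at 151143158 and 151317348 it was 0.33. The chromosome 8 stretch came as close, at large shifts and over fewer positions. Its r was 0.35, 0.36 and 0.38 with the copies at 151261089, 151317348 and 151414656, and 0.27 with that at 151143158. Positions within an element are not independent, and these values are descriptions. The sources used here do not say how reads that align to several places were counted, so the copies may share reads. An example is the 30-nt locus that starts 2361 nt into 2 of the copies. It had 121, 173 and 117 counts in the mock-treated libraries at chr2:151261113-151261142 and 113, 177 and 117 at chr2:151414680-151414709. Agreement between copies is for this reason not counted as replication.

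Within a stretch the small RNAs were defined more sharply at the 5′ end than at the 3′ end. L1Md loci had 17586 distinct 5′ ends and 21988 distinct 3′ ends. The 100 most used 5′ ends held 44.7% of the counts and the 100 most used 3′ ends 32.9%. A set of 1067 5′ ends with at least 100 counts held 83.6% of the counts, and each of these carried a median of 10 lengths. Many loci were rare, since 22707 had a single count, 26703 were seen in 1 library only and 607 were seen in all 15.

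The level of L1Md small RNA is given in CPM, the counts at L1Md per 1000000 counts of the library. In the mock-treated libraries L1Md reached 1863, 1874 and 1781 CPM, and with CMC 1586, 1656 and 1588 CPM. It reached 2720, 2754 and 2650 CPM in input, 3016, 3347 and 2822 CPM in Ψ-IP and 1544, 1745 and 1776 CPM in flow-through. Each Ψ-IP library was above each input library, each CMC-treated library was below each mock-treated library, and each flow-through library was below all Ψ-IP and input libraries. These are bulk libraries, in which fewer cells of a type and less RNA per cell cannot be told apart.

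**Figure D1:**
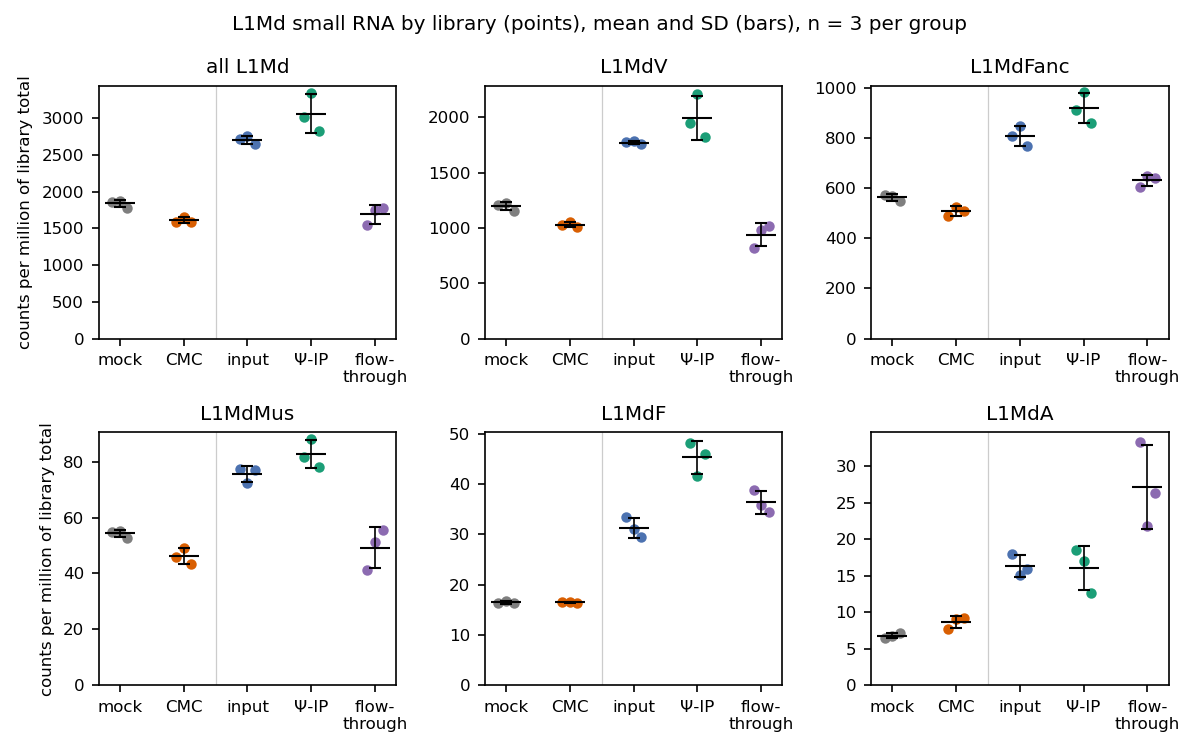
L1Md small RNA in CPM (vertical axis, from 0) in the 5 groups, for all L1Md and for 5 subfamilies. Points are libraries and bars are means with SD (n = 3). The grey line separates the experiments. L1MdA is highest in flow-through (27.1 CPM), where L1MdV is lowest (939 CPM).

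Changes in abundance were tested in edgeR with the quasi-likelihood test, and the threshold was a Benjamini-Hochberg adjusted p-value of 0.01. Fold changes are log2 values from that fit with their standard error (SE), on a scale that makes the bulk of features equal between libraries. Summed over all loci, L1Md differed from input by 0.17 (SE 0.051) in Ψ-IP, with an adjusted p-value of 0.0206, which missed the threshold. Of 41 summed families 12.2% were higher and 17.1% lower. Without Ψ-IP replicate 3 the difference was 0.23 and passed. With CMC the sum was at -0.17 (SE 0.039, adjusted p = 0.0119), just short of the threshold, against 5.0% of families higher and 2.5% lower. With replicate number as a block, taken as a pairing in this experiment, it passed at -0.17 with an adjusted p-value of 1.07e-04, and without CMC-treated replicate 2 it passed at -0.20. Against flow-through L1Md was higher in Ψ-IP by 0.83 (SE 0.064, adjusted p = 3.6e-07), where 25% of families were higher and 22.5% lower. The comparisons with input and with flow-through share the Ψ-IP libraries.

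The remaining L1 names moved in the same directions. Other L1 was higher in Ψ-IP than in input by 0.15 (adjusted p = 7.48e-05), lower with CMC at -0.13 (adjusted p = 0.00533) and higher in Ψ-IP than in flow-through by 0.43 (adjusted p = 1.06e-07). The difference between L1Md and other L1 was tested directly on the log2 ratio of their counts in each library, by an exact two-sided permutation test that cannot give a p below 0.1 with 3 libraries against 3. The ratio differed by 0.02 between Ψ-IP and input (exact permutation p = 0.8, higher in 5 of 9 pairs of libraries, and -0.03 without Ψ-IP replicate 2) and by -0.04 between CMC and mock treatment (exact permutation p = 0.2). In Ψ-IP it was -3.31 ± 0.093 and in flow-through -3.71 ± 0.065 (SD, n = 3), a difference of 0.40 that held in 9 of 9 pairs (exact permutation p = 0.1). Adjusted over the 16 values tested in this way, the p-values were 0.800, 0.246 and 0.145. Only against flow-through, a comparison added after the data were seen, did L1Md separate from other L1 in all 9 pairs of libraries. Between libraries of the same number the ratio was lower with CMC each time, at -3.77, -3.71 and -3.76 against -3.67, -3.69 and -3.75.

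The subfamilies did not move as one. In Ψ-IP against input, L1MdF was the only L1Md name past the threshold, where 11% of 547 repeat names were higher and 10.1% lower. L1MdF stood at 33.5, 31.1 and 29.5 CPM in input and at 48.3, 41.7 and 46.0 CPM in Ψ-IP. The groups did not overlap, and the log2 difference was 0.55 (SE 0.080, adjusted p = 2.84e-04). L1MdV was at 1772 ± 15.1 CPM in input and 1995 ± 201 CPM in Ψ-IP (SD, n = 3), a log2 difference of 0.19 with an adjusted p-value of 0.062. L1MdFanc was at 809 ± 39.6 and 920 ± 60.9 CPM, a difference of 0.20 with an adjusted p-value of 0.0332. L1MdMus, L1MdA, L1MdTf and L1MdGf were at 0.14, -0.05, -0.34 and -0.37, with adjusted p-values between 0.162 and 0.843. L1MdA turned positive without input replicate 1 (0.03) or Ψ-IP replicate 3 (0.13).

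With CMC, L1MdV and L1MdFanc were the names past the threshold, both lower, where 1.87% of 536 repeat names were higher and 3.73% lower. L1MdV was at 1208, 1224 and 1154 CPM in the mock-treated libraries and 1026, 1051 and 1005 CPM with CMC, without overlap. Its difference was -0.24 (SE 0.038, adjusted p = 9.39e-04), and without mock-treated replicate 2 it missed the threshold at -0.23. L1MdFanc was at -0.18 (SE 0.036, adjusted p = 0.00702), and it missed the threshold when any 1 library other than CMC-treated replicate 2 was left out, at values between -0.16 and -0.19. L1MdMus reached -0.26 (adjusted p = 0.0132) and passed with DESeq2's Wald test, with the replicate block or without CMC-treated replicate 2 (-0.30), so that 3 names were lower with the block. L1MdA, by contrast, was at 6.40, 6.71 and 7.16 CPM with mock treatment and at 7.67, 9.11 and 9.14 CPM with CMC, without overlap, yet its difference of 0.32 (SE 0.091) had an adjusted p-value of 0.0456. The separation rested on 1 stretch of chromosome 7 that begins at 69918399, with 2.78, 2.93 and 3.27 CPM and 4.03, 4.76 and 4.21 CPM. Without it L1MdA was at 3.62, 3.78 and 3.89 CPM with mock treatment and at 3.64, 4.35 and 4.94 CPM with CMC, which overlapped. L1MdTf and L1MdGf differed by 0.07 and -0.09, signs that turned without CMC-treated replicate 2 (-0.02) and without mock-treated replicate 3 (0.03), and L1MdF by -0.02, with adjusted p-values from 0.805 to 0.892.

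Against flow-through the contrast was wider. L1MdV was higher in Ψ-IP by 1.09 (SE 0.090, adjusted p = 2.85e-06), L1MdMus by 0.75 (adjusted p = 1.6e-04) and L1MdFanc by 0.54 (adjusted p = 3.93e-05), where 18.6% of 548 repeat names were higher and 17.9% lower. L1MdA was lower at -0.78 (SE 0.174, adjusted p = 0.00278). It had 33.3, 21.9 and 26.3 CPM in flow-through and 18.5, 16.9 and 12.6 CPM in Ψ-IP, without overlap, and missed the threshold without flow-through replicate 1 (-0.60), Ψ-IP replicate 2 (-0.84) or Ψ-IP replicate 3 (-0.63). This difference rested on the same chromosome 7 stretch, with 24.2, 15.1 and 20.1 CPM in flow-through and 10.5, 7.86 and 6.14 CPM in Ψ-IP. Without that stretch L1MdA was at 7.35 ± 1.52 CPM in flow-through and 7.84 ± 1.3 CPM in Ψ-IP (SD, n = 3), and the groups overlapped. L1MdF, L1MdTf and L1MdGf were at 0.32, -0.49 and -0.96 and did not pass, with adjusted p-values of 0.0169, 0.131 and 0.146. L1MdF passed at 0.37 without flow-through replicate 1 and at 0.39 from loci of 24 to 33 nt. It also passed at 1.09 from loci with more than 20 counts, which are 27 of its 2784 loci. That minimum includes the Ψ-IP counts and so favours loci high there, and no support is drawn from it.

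The older names were set directly against the active lineages by the log2 ratio of L1MdV and L1MdFanc to L1MdA, L1MdTf and L1MdGf in each library, a test chosen after the data were seen. The ratio was 7.50 ± 0.105 with mock treatment and 7.04 ± 0.093 with CMC (SD, n = 3), a difference of -0.47 in 9 of 9 pairs (exact permutation p = 0.1). It was 6.97 ± 0.103 in input and 7.24 ± 0.213 in Ψ-IP, a difference of 0.28 in 8 of 9 pairs (exact permutation p = 0.2), and 5.63 ± 0.405 in flow-through. Ψ-IP and flow-through differed by 1.61 in 9 of 9 pairs (exact permutation p = 0.1). A part of the active-lineage count lay in the chromosome 7 stretch of L1MdA. Without it, a setting added after the data were seen, the differences were smaller, at -0.33 with CMC, 0.16 against input and 1.02 against flow-through, in 9, 8 and 9 of 9 pairs. Over the 16 values tested the adjusted p was 0.145 for an exact permutation p of 0.1 and 0.246 for one of 0.2, so none of these differences passed.

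The leading stretches were then compared. In Ψ-IP against input 11 of 91 L1Md stretches tested were higher and 2 lower, against 6.64% and 6.39% of all 6088 stretches. Among the 8 leading ones, 3 of the 4 copies on chromosome 2 were higher. The copy at 151261089 was at 361, 367 and 347 CPM in input and 433, 506 and 394 CPM in Ψ-IP, without overlap, with a difference of 0.35 (SE 0.075, adjusted p = 0.00154). The copies at 151414656 and 151317348 were higher by 0.33 (adjusted p = 0.00188) and 0.31 (adjusted p = 0.00238), and that at 151143158 reached 0.25 with an adjusted p-value of 0.0152, passing without Ψ-IP replicate 3 (0.30) and with the replicate block (0.25). The chromosome 8 stretch showed next to no difference. It was at 508, 481 and 530 CPM in input and 480, 566 and 446 CPM in Ψ-IP, overlapping, with a difference of 0.02 (adjusted p = 0.912) whose sign turned without input replicate 2 (-0.01) or Ψ-IP replicate 2 (-0.09). The stretches led by chr14:24348247 and chr7:73805051 were at 0.17 and 0.14, and the L1MdMus stretch at 0.23, all short of the threshold. Without input replicate 1 or 3 all 3 copies missed the threshold and 3 stretches in all were higher, and 6 were higher without Ψ-IP replicate 2, where the copies at 151317348 (0.23) and 151414656 (0.24) missed it. None was lower without input replicate 1, input replicate 3, Ψ-IP replicate 1 or Ψ-IP replicate 2, and 1 was lower without input replicate 2. In the reductions without input replicates 1 and 3 the copies stayed between 0.29 and 0.35.

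Among smaller stretches the differences were larger. An L1MdF stretch at chr14:44775771 was higher by 1.40 (adjusted p = 8.85e-09). An L1MdFanc stretch on chromosome 9 was higher by 1.43 and an L1MdA stretch on chromosome 10 by 1.30. The lower ones were an L1MdFanc stretch (-3.14) and an L1MdMus stretch (-1.53), both on chromosome 7. All of these were named after their values were seen.

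With CMC no L1Md stretch was higher and 7 of 93 were lower by the edgeR quasi-likelihood test, against 0.736% and 1.4% of all 5845 stretches. At an unadjusted p under 0.05 there were 2 higher and 19 lower, where 7.63% and 9.44% of all stretches were. Among the 8 leading stretches, 6 were lower, with all 4 copies on chromosome 2 at differences between -0.35 and -0.29 and adjusted p-values between 6.72e-04 and 0.00147. The copy at 151261089 was at 264, 270 and 257 CPM with mock treatment and 220, 225 and 213 CPM with CMC, without overlap. The chromosome 8 stretch was lower at -0.28 (adjusted p = 0.00299) and the L1MdMus stretch at -0.33 (adjusted p = 0.00514). The L1MdV stretch on chromosome 7 stood apart from them at 207, 206 and 198 CPM with mock treatment and 204, 206 and 199 CPM with CMC, which overlapped, and its difference was -0.04 (SE 0.051, adjusted p = 0.725). The chromosome 14 L1MdFanc stretch was at -0.13 (adjusted p = 0.12). The number of lower stretches was 0 without mock-treated replicate 2, 4 without mock-treated replicate 1 and 3 without mock-treated replicate 3. Without mock-treated replicate 2 the 4 copies stayed between -0.33 and -0.28. The chromosome 8 stretch missed the threshold when any 1 library other than CMC-treated replicate 1 was left out, at -0.31 to -0.25, the L1MdMus stretch when any mock-treated library or CMC-treated replicate 3 was left out, at -0.35 to -0.27, and the copy at 151317348 also without mock-treated replicate 3 (-0.30).

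Against flow-through all 8 leading stretches were higher in Ψ-IP, and in all 18 of 91 L1Md stretches were higher and 4 lower, where 10.5% and 8.31% of 6090 stretches were. The chromosome 8 stretch differed by 1.58, the 4 copies by 1.21 to 1.39, and the L1MdMus stretch by 1.17. The chromosome 14 and chromosome 7 stretches differed least, by 0.52 and 0.55. The number of lower stretches was 2 without flow-through replicate 2, Ψ-IP replicate 2 or Ψ-IP replicate 3.

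**Figure D2:**
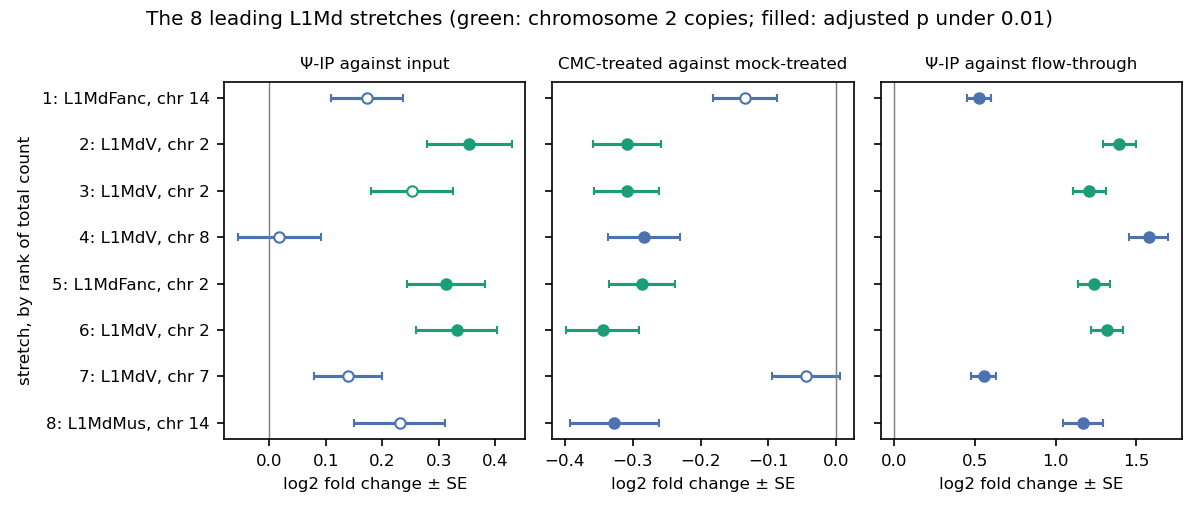
Log2 fold change with SE (horizontal axis) of the 8 leading L1Md stretches (vertical axis, by total count) in 3 comparisons of 3 against 3 libraries. Green marks the 4 chromosome 2 copies, and filled symbols have an edgeR adjusted p-value under 0.01. The copies are above input, below mock treatment and above flow-through.

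Single loci were tested where they had more than 20 counts in the experiment. This kept 2739 L1Md loci in the Ψ-IP experiment, with 74.9% of its L1Md counts, and 2249 in the CMC experiment, with 82.0%. In Ψ-IP against input 131 of the 2739 L1Md loci were higher and 151 lower, which is 4.78% and 5.51%. Over all 686863 loci the shares were 5.45% and 10.7%. The median log2 difference was 0.13 for L1Md and -0.10 for all loci. The higher share was close to the background, and the lower share was below it. Leaving out libraries moved these counts, to 50, 87 and 54 higher without input replicates 1, 2 and 3, and to 78 and 96 lower without input replicates 1 and 3.

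Calls in both directions lay side by side in the same stretch. The chromosome 14 L1MdFanc stretch had 25 higher and 23 lower loci of 449, and the 4 copies together had 73 higher and 65 lower of 1490. The chromosome 8 stretch had 8 higher and 29 lower of 253 (3.16% and 11.5%), with a median of -0.25, and the chromosome 7 L1MdV stretch had 17 higher and 29 lower of 327 (5.20% and 8.87%). Over all loci 5.45% were higher and 10.7% lower, so the lower calls in these 2 stretches were near the background. Calls of opposite direction seldom shared an end. Loci called higher had 102 different 5′ ends and loci called lower had 103, and 1 5′ end was in both sets, which is 0.490% of the ends with a call. For 3′ ends the numbers were 122 and 142, with 0 in both sets. Over all loci the shares were also low, at 1.59% of 5′ ends and 0.293% of 3′ ends.

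Along the 4 copies the called 5′ ends fell at like positions and alternated in direction over short distances. Called loci of 1 direction were chained into runs wherever their 5′ ends, placed along the copies, were at most 20 nt apart, and runs with at least 6 calls in at least 3 copies were kept. This rule was chosen after the values were seen and drew the runs from the calls themselves, and the copies may share reads, so the counts are descriptions and no test was made. For Ψ-IP against input there were 8 runs. The first, at 65 to 67 nt, had 6 higher loci of 36 tested and 0 lower, and the next, at 105 to 120 nt, had 16 lower of 43 and 0 higher, with 4 in each copy. At 1310 to 1318 nt 9 of 18 were higher, 3 in each copy other than that at 151143158, where none was tested. At 1733 to 1744 nt 6 of 26 were higher and 0 lower, and at 1765 to 1790 nt 12 of 75 were lower and 0 higher. At 2234 to 2244 nt 7 of 27 were higher, and at 2306 to 2339 nt 19 of 111 were lower and 0 higher, with between 3 and 6 in each copy. At 2354 to 2380 nt, at the 3′ side of the copies, 15 of 103 were higher and 0 lower, with 0 of 10 in the copy at 151143158. Small RNAs that begin within 100 nt of each other on the same strand thus had opposite differences in Ψ-IP.

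**Figure D3:**
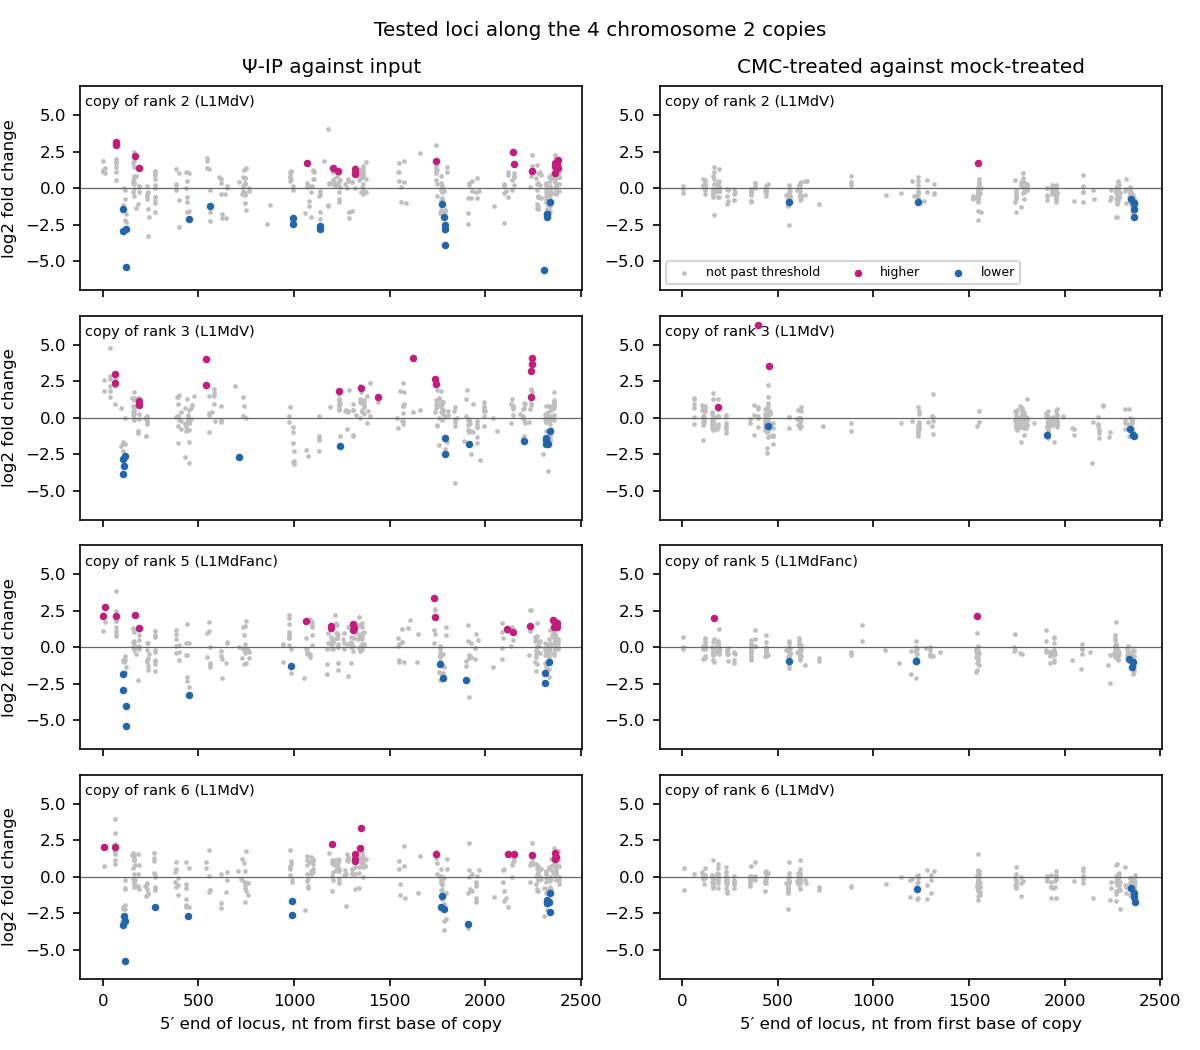
Log2 fold change (vertical axis) of each tested locus against the distance of its 5′ end from the first base of the copy (horizontal axis, nt) in the 4 chromosome 2 copies (rows), for Ψ-IP against input and CMC against mock treatment (columns). Coloured points passed an adjusted p-value of 0.01. Lower loci at 105 to 120 nt are next to higher loci at 65 to 67 nt in each copy, and CMC-lower loci gather near the right edge. A point in the second row, at 6.35, has 0 counts in all mock-treated libraries, so its height is no estimate of size.

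The most abundant L1Md locus of the Ψ-IP experiment was L1MdV chr8:110125664-110125693, 30 nt, with 77.8, 66.4 and 113 CPM in input, 74.2, 87.7 and 52.3 CPM in Ψ-IP and 8.09, 6.74 and 9.93 CPM in flow-through. Input and Ψ-IP overlapped (-0.41, SE 0.20, adjusted p = 0.115), and flow-through was below both (3.36 for Ψ-IP against flow-through, adjusted p = 2.87e-29). L1MdV chr2:151262156-151262185, in the copy at 151261089, had 22.9, 28.5 and 25.9 CPM in input, 63.9, 87.5 and 57.2 CPM in Ψ-IP and 1.91, 3.08 and 5.45 CPM in flow-through. The groups did not overlap, and Ψ-IP was higher by 1.29 (SE 0.21, adjusted p = 3.21e-08) than input and by 4.59 (adjusted p = 6.02e-47) than flow-through.

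L1MdFanc chr14:24351282-24351311 went the other way. It had 42.7, 45.3 and 38.4 CPM in input, 10.02, 9.68 and 7.23 CPM in Ψ-IP and 18.9, 20.8 and 26.8 CPM in flow-through. Ψ-IP was lowest without overlap, at -2.38 (SE 0.23, adjusted p = 4.3e-22) against input and -1.07 (adjusted p = 0.00234) against flow-through. The latter missed the threshold without flow-through replicate 2 (-1.10) or 3 (-0.92) or Ψ-IP replicate 3 (-0.98). L1MdV chr8:110125482-110125511 had 21.0, 25.5 and 29.1 CPM in input and 13.8, 13.6 and 13.8 CPM in Ψ-IP, and was lower at -1.01 (adjusted p = 9.06e-05). L1MdV chr8:110125802-110125831 and chr8:110125807-110125836, which overlap, were at 0.00 and -0.52 and did not pass, and the first turned negative without input replicate 2 (-0.08) or 3 (-0.06) or Ψ-IP replicate 2 (-0.37).

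The 4 named rises in Ψ-IP came from different places. L1MdFanc chr9:54207402-54207431 had 0.239, 0.181 and 0.0530 CPM in input and 1.54, 1.21 and 1.13 CPM in Ψ-IP, a rise of 2.78 (adjusted p = 3.15e-05), but 2.00, 1.94 and 0.909 CPM in flow-through, which overlapped Ψ-IP. L1MdV chr2:151144902-151144932 had 0.678, 0.483 and 0.265 CPM in input, 2.91, 2.76 and 2.59 CPM in Ψ-IP and at most 0.216 CPM in flow-through, a rise of 2.34 against input. L1MdV chr2:151415839-151415870, of 32 nt, rose by 2.27, and L1MdV chr6:85108854-85108883 by 2.21. The rise at chr2:151415839 moved to 3.03 without input replicate 2. Of the 4 named falls, a pair had almost no counts left in Ψ-IP, so that no fold is given for them. L1MdV chr8:110125590-110125620 had 25, 14 and 25 counts in input and 1, 0 and 0 in Ψ-IP, and L1MdFanc chr14:24351229-24351257 had 33, 12 and 21 counts and 0, 2 and 1. The others were L1MdFanc loci on chromosome 2, chr2:151317468-151317497 (-4.03) and chr2:151317798-151317828 (-3.30). The latter was near the floor in Ψ-IP, with a mean of 0.114 CPM against 1.01 CPM in input, so its fold is imprecise. The former lies in the run at 105 to 120 nt and had 1.95, 2.90 and 3.28 CPM in input against 0.343, 0.173 and 0.0836 CPM in Ψ-IP.

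With CMC 7 of 2249 tested L1Md loci were higher and 28 lower, which is 0.311% and 1.24%. Over all 556583 loci 1.07% were higher and 0.654% lower, and the median was -0.24 for L1Md and 0.00 for all loci. The lower share was above the background and the higher share below it. With replicate number as a block 9 L1Md loci were higher and 53 lower, where the background was 1.24% and 1.03%. The counts depended on single libraries. Lower loci numbered 15 and 7 without mock-treated replicates 1 and 2, and 8 and 12 without CMC-treated replicates 2 and 3. Higher loci numbered 1 and 4 without mock-treated replicates 2 and 3, and 3 without CMC-treated replicate 3.

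Of the 28 lower loci, 23 lay in the 4 copies on chromosome 2 and 15 formed a run at 2337 to 2369 nt by the rule used for Ψ-IP, with at least 3 in each copy. That stretch of the copies held 127 of the 1238 loci tested there. Its median was -0.73, and the median of the rest of the copies was -0.26, a difference that the choice of the run enlarges. L1MdV chr2:151261113-151261143, 31 nt, had 51, 83 and 58 counts with mock treatment and 16, 17 and 5 with CMC, which is 1.43, 1.42 and 1.45 CPM against 0.327, 0.704 and 0.183 CPM. The groups did not overlap (-1.95, SE 0.29, adjusted p = 7.77e-06). That was a condition for a named rise or fall, so it adds no support. The other named falls were chr2:151414672-151414701 (L1MdV, -1.73), chr2:151261113-151261140 (L1MdV, -1.40) and chr2:151319701-151319731 (L1MdFanc, -1.36), and all of them start between 2353 and 2369 nt of their copy. The first of these 3 missed the threshold whichever library was left out (-1.89 to -1.63), the second without CMC-treated replicate 3 (-1.08) or mock-treated replicate 2 (-1.36), and the third without CMC-treated replicate 1 (-1.24). The run overlaps both the last run of Ψ-IP against input, which was higher, and the one before it at 2306 to 2339 nt, which was lower. Of 124 loci tested at 2337 to 2369 nt in Ψ-IP against input, 10 were higher and 3 lower, where 5.45% and 10.7% of all loci were. At 2354 to 2380 nt CMC gave 0 higher and 10 lower of 62 (median -0.98), where 1.24% of the L1Md loci and 0.654% of all loci were lower. These 10 also lie in the CMC run and are counted again here. In the same place Ψ-IP was higher than flow-through at 60 of 103 loci and lower at 0 (median 3.88), where 17.4% of the L1Md loci and 9.30% of all loci were higher. The run at 2354 to 2380 nt was drawn from loci high in the same Ψ-IP libraries, so that the last count is not separate from its choice. In the runs at 65 to 67 nt and 105 to 120 nt 0 loci passed with CMC, of 7 and 53 tested. Against flow-through the run at 65 to 67 nt, higher against input, had 0 higher and 3 lower of 36 (median -1.24), where 0.840% of the L1Md loci and 3.56% of all loci were lower. The runs at 105 to 120 nt, 1765 to 1790 nt and 2306 to 2339 nt, lower against input, had 0 lower loci against flow-through, and 3 of 43, 6 of 75 and 18 of 111 higher, none of which is a share above that of the L1Md loci.

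The most abundant loci of the CMC experiment were also lower or did not pass. L1MdV chr2:151143606-151143636, 31 nt, had 41.5, 45.2 and 46.7 CPM with mock treatment and 32.5, 27.99 and 32.8 CPM with CMC, without overlap (-0.58, SE 0.12, adjusted p = 0.00186). L1MdFanc chr14:24348922-24348951 had 38.0, 38.7 and 38.9 CPM and 30.04, 29.02 and 25.1 CPM, without overlap (-0.52, adjusted p = 0.00571). The former missed the threshold without mock-treated replicate 2 (-0.57) or 3 (-0.53) or CMC-treated replicate 2 (-0.49), and the latter when any 1 library other than CMC-treated replicate 1 was left out (-0.54 to -0.45). L1MdV chr8:110125815-110125844 was at -0.51 (adjusted p = 0.0146), short of the threshold except without CMC-treated replicate 1 (-0.68), and was higher in Ψ-IP than in input by 1.44 (adjusted p = 2.2e-08). L1MdFanc chr2:151317540-151317570, L1MdV chr2:151263281-151263311 and L1MdFanc chr14:24348495-24348524 were at -0.13, -0.18 and -0.13, with adjusted p-values above 0.5.

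Of the 7 loci higher with CMC, 6 were 27 to 29 nt long, as were 39.3% of the L1Md loci tested, and 26 of the 28 lower ones were 29 to 31 nt long, as were 63.5% of those tested. Over all loci, 27 to 29 nt made up 47.2% of the higher ones and 33.6% of those tested, and 29 to 31 nt made up 66.0% of the lower ones and 40.9% of those tested. The same 6 shared their 3′ end with a locus more abundant with mock treatment and began 1 to 4 nt further in at the 5′ end. Lower loci could be placed so too. Among these, chr2:151261113-151261140 and chr2:151145518-151145546 began 2 and 1 nt inside a more abundant locus with the same 3′ end. How many of all tested loci are placed in this way was not counted. L1MdV chr2:151143610-151143636, 27 nt, named after its values were seen, had 0, 1 and 3 counts with mock treatment and 13, 6 and 20 with CMC (adjusted p = 3.06e-04), and no fold is given for so few mock-treated counts. It ends where the 31-nt chr2:151143606-151143636 ends, whose mock-treated counts were 1478, 2640 and 1870. L1MdV chr8:110125816-110125844, 29 nt, had 1, 8 and 8 counts with mock treatment and 29, 9 and 17 with CMC (2.02, adjusted p = 0.00208), and it begins 1 nt inside the 30-nt chr8:110125815-110125844. The other named rises of this kind were the 28-nt loci chr2:151261927-151261954 (L1MdV, 1.69) and chr2:151318889-151318916 (L1MdFanc, 2.13), which start at 1549 and 1541 nt of their copies. Most of these calls depended on single libraries. Of the 6, chr2:151143555-151143582 (0, 0 and 0 counts with mock treatment and 17, 7 and 3 with CMC) kept its call whichever library was left out, and chr2:151317513-151317539 (2, 6 and 4 counts and 16, 7 and 15) lost it in every case. Both were named after their values were seen. The locus at chr2:151143610 missed the threshold when CMC-treated replicate 3 or mock-treated replicate 2 was left out. The locus at chr8:110125816 fell short of the threshold in 3 cases, without mock-treated replicate 1 (1.65), mock-treated replicate 2 (2.10) and CMC-treated replicate 1 (1.88), that at chr2:151318889 without mock-treated replicate 2 (1.98), and that at chr2:151261927 when any 1 library other than CMC-treated replicate 1 was left out (1.47 to 1.79). L1MdV chr2:151143348-151143378 was the exception. It is 31 nt long and had 3.45, 3.56 and 3.05 CPM with mock treatment and 5.44, 5.67 and 6.84 CPM with CMC (0.76, adjusted p = 0.00121). The groups did not overlap, a condition of its naming as a rise. It was also higher in Ψ-IP than in input by 0.85 (adjusted p = 0.00398). It missed the threshold with CMC without mock-treated replicate 2 (0.81) or 3 (0.71) or CMC-treated replicate 3 (0.66), and in Ψ-IP without input replicate 1 (0.77) or 3 (0.80).

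Shortening was then measured over all ends with at least 100 counts, after these loci had been seen. The share of L1Md counts that were 1 to 4 nt shorter at the 5′ end than the most abundant locus with the same 3′ end was 10.01%, 10.2% and 10.2% with mock treatment and 10.98%, 11.7% and 12.03% with CMC. At the 3′ end it was 21.0%, 20.9% and 20.6% with mock treatment and 22.3%, 23.2% and 22.01% with CMC. The groups did not overlap at either end, with rises of 1.43 and 1.66 percentage points. In the Ψ-IP experiment both shares were smaller in Ψ-IP than in input, 7.38 ± 0.854% against 9.11 ± 0.348% at the 5′ end and 20.3 ± 0.638% against 23.0 ± 0.399% at the 3′ end (SD, n = 3). Each of these 4 differences held in 9 of 9 pairs (exact permutation p = 0.1, adjusted p = 0.145), the smallest p that 3 against 3 libraries allow.

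Of the L1Md loci, 1030 were tested in both experiments. Among these 64 were higher and 76 lower in Ψ-IP against input, which is 6.21% and 7.38%, against 7.87% and 12.96% of all loci tested in both. With CMC 23 were lower and 1 higher, which is 2.23% and 0.0971%, against 1.09% and 0.958%. Higher in Ψ-IP and lower with CMC were 2 loci, and lower in Ψ-IP and higher with CMC 0. The 2 are 0.194% of the L1Md loci tested in both, against 0.298% of all 293568 such loci, so their number does not stand above the background, and they are given as single loci. Both of the 2 lie in the last run of the chromosome 2 copies. L1MdV chr2:151261111-151261140 had 1.72, 1.75 and 2.01 CPM in input and 3.68, 4.49 and 3.93 CPM in Ψ-IP (1.00, SE 0.31, adjusted p = 0.00688). It had 2.64, 1.76 and 1.65 CPM with mock treatment and 1.25, 1.12 and 0.695 CPM with CMC (-0.98, SE 0.23, adjusted p = 0.00586). L1MdV chr2:151414672-151414701 had 0.918, 0.785 and 0.636 CPM in input and 3.51, 2.51 and 1.13 CPM in Ψ-IP (1.38, SE 0.38, adjusted p = 0.0029), and 0.477, 0.531 and 0.424 CPM with mock treatment against 0.164, 0.124 and 0.146 CPM with CMC (-1.73, SE 0.40, adjusted p = 0.00597). In all 4 cases the groups did not overlap, which was a condition of naming the second locus as a fall with CMC. The calls depended on every group being complete. In Ψ-IP the first locus kept its call without Ψ-IP replicate 1 and lost it in each other reduction by 1 library (0.90 to 1.04). With CMC it kept the call without mock-treated replicate 3 and without CMC-treated replicate 1, and lost it otherwise (-1.09 to -0.77). The second locus kept its call in Ψ-IP without Ψ-IP replicate 3 and lost it otherwise (1.04 to 1.54), and with CMC it lost the call whichever library was dropped (-1.89 to -1.63). The locus higher in both comparisons was chr2:151143348-151143378.

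The untreated controls of the 2 experiments did not share their leading loci. L1MdV chr8:110125664-110125693 was at 85.6 ± 24.04 CPM in input and 3.18 ± 0.612 CPM with mock treatment, and chr8:110125802-110125831 at 42.7 ± 5.12 and 0.268 ± 0.084 CPM. Conversely, L1MdFanc chr14:24348922-24348951 was at 2.34 ± 0.590 CPM in input and 38.5 ± 0.457 CPM with mock treatment (SD, n = 3). Of the 6 most abundant L1Md loci of each experiment none was on both lists. Kit and experiment differ together here and cannot be told apart, and these levels were not tested against each other.

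Against flow-through 476 of 2739 L1Md loci were higher in Ψ-IP and 23 lower, which is 17.4% and 0.840%. Over all loci the shares were 9.3% and 3.56%, with a median of 1.22 for L1Md and -0.02 for all loci. The higher share was above the background and the lower share below it. The 4 copies contributed 294 higher and 6 lower loci of 1490, with a median of 1.64. The chromosome 14 L1MdFanc stretch had 70 higher and 7 lower of 449 (median 0.59), and the chromosome 7 L1MdV stretch had 36 and 6 of 327 (median 0.57). Loci of L1MdA, L1MdTf and L1MdGf numbered 23, of which 1 was higher and 3 lower (median -1.24). Higher loci numbered 302 without Ψ-IP replicate 2, and lower loci 14, 14 and 10 without Ψ-IP replicates 1, 2 and 3.

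L1Md small RNAs had the length of pachytene piRNAs bound by MIWI, which are longer than those bound by MILI. In mock-treated libraries 76.1 ± 0.685% of L1Md counts were 29 to 31 nt long and 9.24 ± 0.243% were 25 to 27 nt long (SD, n = 3). With CMC the shares were 73.4 ± 1.15% and 10.8 ± 0.123%. Both differences, -2.76 and 1.60 percentage points, held in 9 of 9 pairs (exact permutation p = 0.1, adjusted p = 0.145). In input the shares were 79.7 ± 0.413% and 6.18 ± 0.288%, and in Ψ-IP 80.3 ± 0.764% and 4.79 ± 0.296%. The longer class did not separate (exact permutation p = 0.4), and the shorter was lower in Ψ-IP in 9 of 9 pairs by 1.39 percentage points (exact permutation p = 0.1). The labels state the gel cut used here, whereas the study's methods for Ψ-IP name a narrower one that ends at 30 nt. L1Md loci of 31 nt nevertheless held 19.9% of the counts in input and 22.2% in Ψ-IP, and the part of the cut in the shares by length was not tested. Other L1 showed the same order of means, with 12.9% and 14.7% at 25 to 27 nt with mock treatment and CMC, and 9.13% and 7.29% in input and Ψ-IP.

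Calls at single loci were then counted by length. In Ψ-IP against input, 1 locus of 25 to 27 nt was higher and 13 lower of 167, which is 0.599% and 7.78%, against 3.43% and 10.3% of all loci of that length. At 32 nt, 14 were higher and 5 lower of 197, which is 7.11% and 2.54%, against 6.44% and 8.09%. At 30 nt the numbers were 52 and 62 of 917, which is 5.67% and 6.76%, both below the 7.24% and 12.1% of all loci of that length. The median was -0.30 at 25 to 27 nt, 0.10 at 28 nt, -0.01 at 29 nt, 0.21 at 30 nt, 0.28 at 31 nt, 0.48 at 32 nt and 0.19 at 33 nt or more. It was highest at 24 nt or fewer (0.75), where 12 loci were tested, so that the medians did not follow length throughout. Over all loci the median went from -0.19 at 25 to 27 nt to 0.10 at 32 nt. With CMC the median went from -0.07 at 24 nt or fewer and -0.14 at 25 to 27 nt to -0.36 at 32 nt. It was -0.59 at 33 nt, the longest length in those libraries, where 31 loci were tested. Over all loci the median with CMC went from 0.07 at 25 to 27 nt to -0.12 at 32 nt. Of the 28 L1Md loci lower with CMC, 22 were 30 or 31 nt long, which is 78.6%, as were 42.6% of the L1Md loci tested. Over all loci these lengths made up 46.5% of the lower ones and 27.2% of those tested.

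**Figure D4:**
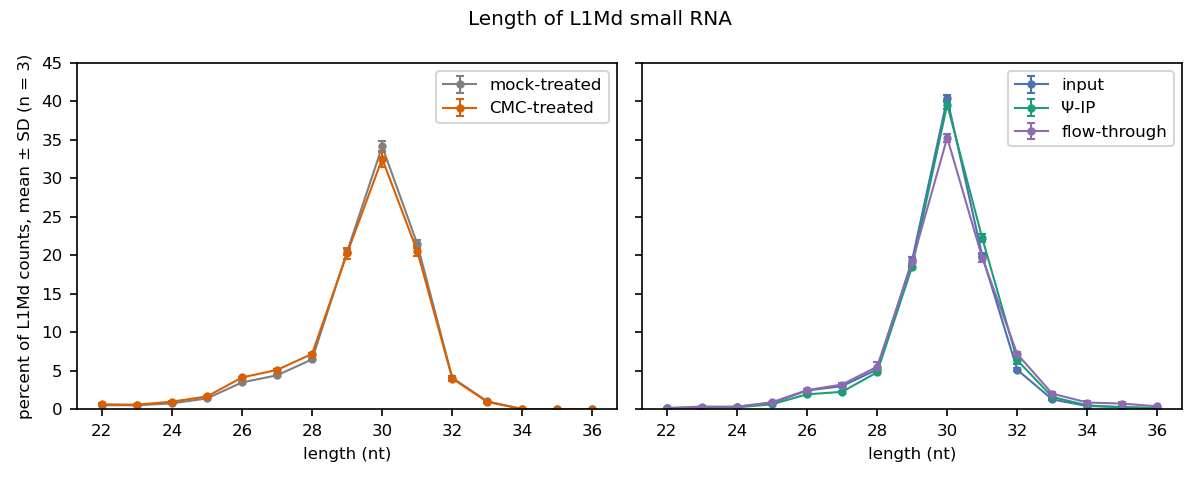
Percent of L1Md counts (vertical axis, mean with SD, n = 3) at each length from 22 to 36 nt (horizontal axis), with the CMC experiment on the left and the Ψ-IP experiment on the right. All groups peak at 30 nt. The CMC experiment holds no locus above 33 nt. With CMC the line lies above mock treatment at 26 and 27 nt and below it at 30 nt, and Ψ-IP lies below input at 26 and 27 nt.

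When PIWI proteins slice a transcript, the cut sets the 5′ end of a piRNA on the opposite strand, so that pairs made in this cycle overlap by 10 nt at their 5′ ends. Such pairs need both strands, and the counted L1Md loci had little of the second one. For each overlap between opposite strands the smaller count of the pair was taken as its weight. The L1Md weight per 1000 L1Md counts was 3.81 ± 0.877 with mock treatment, 4.10 ± 1.40 with CMC, 9.25 ± 2.05 in input, 3.26 ± 1.63 in Ψ-IP and 8.16 ± 2.74 in flow-through (SD, n = 3). For other L1 it was between 16.8 and 43.6 on average. Among overlaps of 1 to 24 nt, 10 nt was the most frequent length, with 7.12% of the L1Md weight and 8.44% of the weight of other L1 over all libraries. Lengths were not ranked within groups. The L1Md share at 10 nt was 17.2%, 6.89% and 6.49% in the flow-through libraries.

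**Figure D5:**
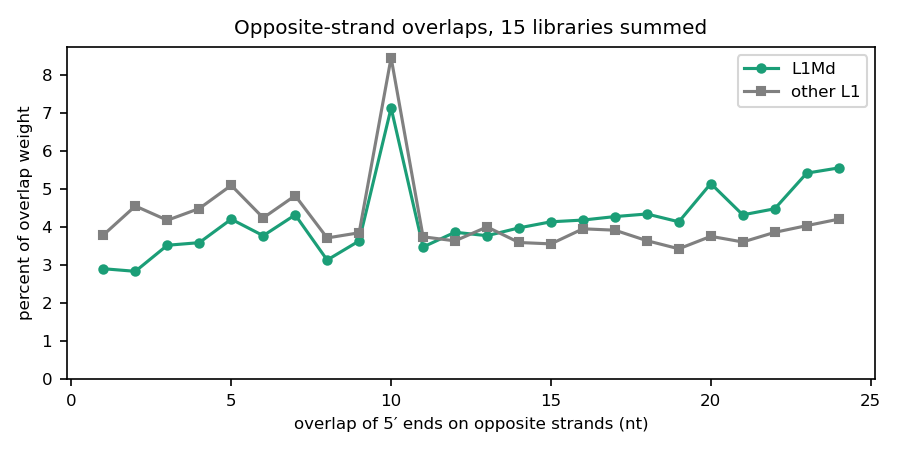
Share of the summed weight of opposite-strand pairs (vertical axis, percent) at each 5′ overlap from 1 to 24 nt (horizontal axis), for L1Md and other L1 over all 15 libraries. Both have their highest point at 10 nt, 7.12% for L1Md and 8.44% for other L1.

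The 10-nt share was 7.46 ± 1.59% in input and 9.07 ± 2.85% in Ψ-IP (SD, n = 3), which overlapped (exact permutation p = 0.6). With CMC it was 6.18 ± 0.958% against 4.94 ± 0.262% with mock treatment, without overlap (exact permutation p = 0.1, adjusted p = 0.145). The L1Md weight behind one such share was between 58 and 714 in a library, so that the shares rest on few pairs. Leaving out 1 library moved the difference in Ψ-IP of 1.60 percentage points to between 0.10 (without Ψ-IP replicate 1) and 2.94 (without Ψ-IP replicate 2), and leaving out input replicate 2 or 3 moved it within that range. That with CMC of 1.24 moved to between 0.71 (without CMC-treated replicate 1) and 1.63.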

How the data were processed

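Small RNA of testis was sequenced in 15 libraries, grouped by their labels. The authors clipped adaptors with Cutadapt, kept reads of 14 to 44 nt, set tRNA fragments aside, mapped the rest to mm10 with Bowtie 2, kept up to 3 mismatches, and intersected them with repeats and piRNA clusters with BEDTools. They deposited raw counts per interval and strand, 1 file per library. The longest locus was 33 nt in the mock-treated and CMC-treated libraries and 44 nt in the others. The study's software list names Bowtie 2 v2.4.1 and BEDTools v2.31.0 without saying for which data, and the handling of reads with several alignments is not given in the sources used here. Counting intervals that differ by 1 nt separately divides the reads of 1 piRNA over several loci.

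Loci were joined over libraries. Loci with more than 20 counts in an experiment, and sums by family, repeat name and stretch, were tested in R 4.3.3 with edgeR 4.0.16 (TMM, quasi-likelihood, Benjamini-Hochberg over all rows of the whole table), 3 against 3 libraries. DESeq2 1.42.0, other scalings, minimums and lengths, a replicate block and leaving out each library were the alternatives. Named loci were the 6 most abundant per experiment, the 4 largest rises and falls, and those moving in both experiments. A named rise or fall passed the threshold with a mean of at least 10 counts and the same direction in all 9 pairs of libraries. Members, lists and tests were chosen with earlier results of these data known. Scripts were tested on simulated data.

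Library totals were 11575705 to 58399368. Replicate libraries differed by more than sampling noise (chi-square per degree of freedom of 1.25 to 4.84). Deviations of same-numbered mock-treated and CMC-treated libraries correlated at 0.124, 0.147 and 0.293 over 87515 loci, and replicate number was taken as a pairing there. Those of Ψ-IP and input correlated at 0.254, 0.303 and -0.0318, which is not clearly less. The labels give no pairing beyond the replicate number. For plant RNA, the study's methods divided each ligated sample into a CMC part and a mock part. The main tests were unpaired in every comparison, and the replicate block was an alternative. Reads were counted without molecular identifiers, so amplified copies of a molecule count several times. Positions are 1-based.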

Additional observations from a re-analysis of the deposited data

How the results depend on the processing

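The comparisons were recomputed under other scalings, tests, minimums and lengths, with a replicate block and without each library. The cause of a change was not tested except where fewer loci or libraries were tested by construction. Of 1603 recomputed values, 1381 kept their direction and side of the threshold, or stayed near the reported count. Apart from leaving out libraries, 11 calls of named loci were lost, 23 times in all, and none of those turned direction.

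In Ψ-IP against input the higher and lower loci numbered 254 and 256 at an adjusted p-value under 0.05, and 67 and 86 by the DESeq2 Wald test, which left the adjusted p of some loci undefined. Higher loci numbered 64 with a minimum of more than 5 counts, 49 with the minimum applied to the other experiment and 47 with none, and lower loci 88 with a mean of at least 10 counts and 83 with the minimum of the other experiment. The Wald test called 0 stretches lower. With CMC, higher loci numbered 13 at 0.05, 3 by the Wald test, 4 with a mean of at least 10 counts, 2 with the minimum of the other experiment and 4 with no minimum. Lower loci numbered 83, 17 by the Wald test, 45 at 24 to 33 nt and 50 with more than 5 counts. With no minimum 2 stretches were higher, and 1 subfamily was lower with total count scaling or from loci with more than 20 counts, where L1MdFanc missed the threshold. The CMC sum passed at -0.18 with size factors or the Wald test, -0.19 with total count scaling, -0.14 from loci with more than 20 counts and -0.19 without the largest stretch. Against flow-through, higher and lower loci numbered 718 and 61 at 0.05. Higher loci numbered 251 with a mean of at least 10 counts and 185 with the minimum of the other experiment, and lower loci 12, 14, 15 and 12 by the Wald test, with more than 5 counts, with the other minimum and with none.

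Libraries of the Ψ-IP experiment are linked in the labels by replicate number alone, with correlations of same-numbered deviations of 0.25, 0.30 and -0.03 for input and 0.09, 0.18 and -0.04 for flow-through. The study's methods retained the unbound fraction of each IP, so a flow-through library may be paired with its Ψ-IP library. With the replicate block the sum passed against input at 0.17 and so did L1MdFanc at 0.20, making 2 subfamilies higher, and the chr14:24348247 (0.17) and chr2:151143158 (0.25) stretches passed. Against flow-through 15 loci were lower. In the CMC experiment the replicate block gave 53 lower loci, a sum of -0.17 and L1MdMus as described above. It changed no other call of a sum, subfamily or leading stretch.

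Differences that changed sign did not pass on either side. Against input, L1MdA was at 0.060 from loci with more than 20 counts, L1MdGf at 0.049 at 24 to 33 nt, the chromosome 8 stretch at -0.027 with no minimum and -0.0077 at 24 to 33 nt, and L1MdV chr8:110125802-110125831 at -0.013 with size factors or the Wald test, -0.050 with the block, -0.18 with more than 5 counts and -0.11 with no minimum or the other one. With CMC, L1MdF was at 0.12 from loci with more than 20 counts, and L1MdGf at 0.24 and L1MdTf at -0.059 at 24 to 33 nt. Against flow-through L1MdTf was at 1.09 from loci with more than 20 counts, a value that rests on 1 of its 549 loci. The share of 29 to 31 nt differed from input by -0.70 percentage points over the same loci.

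Leaving out each library gave 50 to 149 higher and 78 to 163 lower loci against input, 1 to 6 and 7 to 37 with CMC, and 302 to 416 and 10 to 19 against flow-through. Stretches numbered 3 to 9 higher and 0 to 2 lower against input, 0 to 6 lower with CMC and 2 to 4 lower against flow-through, and subfamilies 0 to 3 lower with CMC and 0 to 1 against flow-through. The sum ranged from 0.11 to 0.23 against input and from -0.20 to -0.14 with CMC, the ratio to other L1 from -0.032 to 0.061, L1MdA against input from -0.16 to 0.13, L1MdGf with CMC from -0.17 to 0.026, L1MdTf from -0.022 to 0.16, L1MdV chr8:110125802-110125831 from -0.37 to 0.18 and the chromosome 8 stretch from -0.091 to 0.081.

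A planned test of first base and T content was not run, because sequence was at hand for 2.65% of the loci. Library totals limit what single loci can show.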
